A study of Mus musculus with 6 samples.

Results

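The 10 genes described here mark hepatic stellate cells and liver fibroblasts and leave the collagens aside. They were taken from the deposited liver table by symbol, and all 10 were found among its 21297 genes. They are *Des*, *Reln*, *Pdgfrb*, *Pdgfra*, *Dcn*, *Lum*, *Ecm1*, *Colec11*, *Hand2* and *Rgs5*. Liver RNA came from 6 male C57BL/6J mice on a chow diet, 8 weeks old at the start. Of these mice, 3 had received a control antisense oligonucleotide (CON ASO) and 3 an antisense oligonucleotide against *Mmab* (MMAB ASO). Each mouse was given 50 mg/kg by i.p. injection once per week for 6 weeks, and livers were collected 48 h after the last dose. An antisense oligonucleotide binds a chosen mRNA and leads to its breakdown. No library without an oligonucleotide was analysed here, so both groups carry the treatment itself. The livers of each group bear the replicate numbers 1, 2 and 4, and 3 values listed for a group follow that order.

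Hepatic stellate cells lie between the sinusoidal endothelium and the hepatocytes. In healthy liver they store retinoids and secrete matrix proteins and growth factors, and after injury they become contractile, collagen-producing myofibroblasts. In mouse liver the intermediate filament protein desmin and the secreted glycoprotein reelin are long-used labels of the resting cell, while platelet-derived growth factor (PDGF) acts on it through its receptors and is a strong signal for its growth.

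Levels are given as CPM, the count of a gene scaled by the authors to the total of its library. Sequencing totals do not come with the table. The smallest steps between low values gave an estimate of 0.0181 to 0.0224 CPM for 1 read, with which the lowest member value, *Des* in CON ASO replicate 4, corresponds to about 39 reads and the highest, *Dcn* in MMAB ASO replicate 2, to about 3237. The target gene *Mmab* was lower in every MMAB ASO liver (1.80 to 2.69 CPM) than in any CON ASO liver (5.30 to 6.83 CPM). CON ASO replicate 1 stood apart from the other 5 livers. One gene annotated as ribosomal RNA took 25994 CPM in it and 81353 to 112456 CPM in the others, and the macrophage gene *Marco* was at 15.7 CPM in it and at 0.134 to 0.813 CPM in the others.

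All 10 markers had higher mean levels in MMAB ASO livers. All 10 log2 fold changes were positive, as were 55.6% of those of all tested genes. *Pdgfrb* and *Ecm1* rose most, 2.68-fold and 2.02-fold, and *Reln*, *Rgs5* and *Dcn* rose 1.73-fold, 1.6-fold and 1.48-fold. These 5 of 10 passed an adjusted p of 0.05 in limma (Benjamini-Hochberg over the 11565 genes averaging 1 CPM or more). In the same direction 1.87% of all tested genes passed. None of the 10 was lower at that threshold, where 2.22% of all tested genes were. The estimates for *Lum*, *Hand2*, *Des*, *Pdgfra* and *Colec11* lay between 1.47-fold and 1.75-fold and did not pass. With CON ASO replicate 1 left out 5 of 10 passed, *Lum* in place of *Rgs5*, and with replicate 4 of either group left out *Pdgfrb* and *Ecm1* alone did, 2 of 10. Calls over all 11565 tested genes changed too. With every liver 216 were higher, and without CON ASO replicate 1 the number was 242. Without replicate 4 it was 46 (CON ASO) and 49 (MMAB ASO).

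The median log2 fold change of the 10 markers was 0.65, beside 0.03 over all tested genes. At the study's own thresholds, p up to 0.05 before adjustment and 1.5-fold or more, 6 of the 10 were higher, where 5.52% of all tested genes were. These were *Reln*, *Pdgfrb*, *Lum*, *Ecm1*, *Hand2* and *Rgs5*. For 8 of the 10, every MMAB ASO liver lay above every CON ASO liver, which held for 13.8% of all tested genes. The exceptions were *Pdgfra* and *Hand2*. In liver RNA as a whole, more stellate cells, more RNA per stellate cell and RNA of these genes from other cells cannot be told apart. The rise was not particular to these markers. The median log2 fold change was 0.97 over 18 sinusoidal endothelial genes and 0.96 over 12 Kupffer cell and macrophage genes. Over 12 hepatocyte genes it was -0.20.

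**Figure D1:**
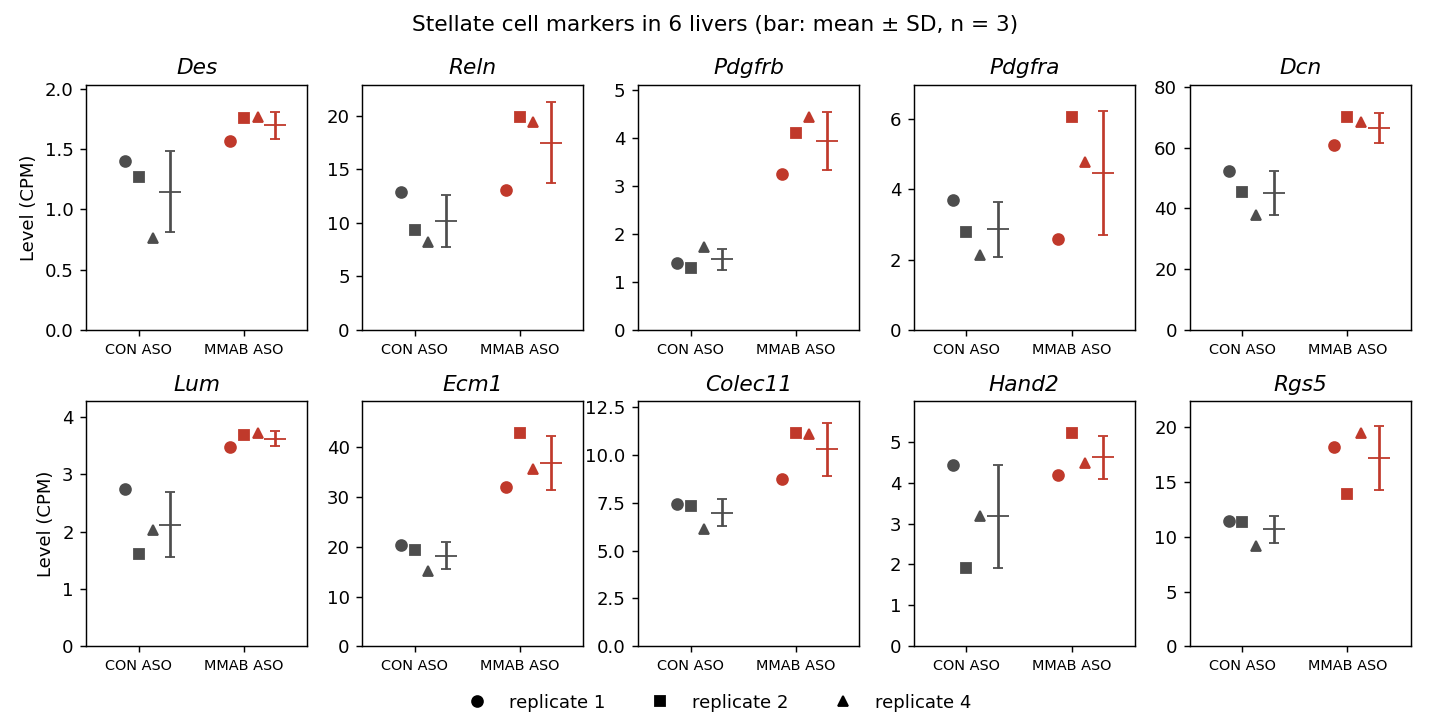
Level in CPM (vertical axes, each from 0) of the 10 markers in the 3 CON ASO and 3 MMAB ASO livers. Each point is a liver, its shape gives the replicate number, and bars are mean ± SD (n = 3). The groups overlap only for *Pdgfra* and *Hand2*.

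*Pdgfrb* and *Pdgfra* encode the receptor tyrosine kinases through which PDGF acts. *Pdgfrb* is on chromosome 18 (GRCm38), from 61045150 to 61085061 on the plus strand. Its level was 1.40, 1.28 and 1.72 CPM in the CON ASO livers, and 3.26, 4.09 and 4.44 CPM in the MMAB ASO livers. The lowest MMAB ASO liver lay well above the highest CON ASO liver. Means were 1.47 ± 0.228 CPM (SD, n = 3) and 3.93 ± 0.606 CPM (SD, n = 3). On the log2 scale it rose by 1.42 (standard error 0.22, limma adjusted p = 0.00461). For it, as for the other 7 markers without overlap, permuting the livers exactly gave a two-sided p of 0.1, the smallest that 3 against 3 allow. *Pdgfrb* passed in all 6 fits that left out 1 liver, with adjusted p from 0.00382 to 0.0306.

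*Pdgfra*, on chromosome 5 from 75152292 to 75198215 on the plus strand, behaved less evenly. It was at 3.68, 2.77 and 2.13 CPM in the CON ASO livers, and at 2.58, 6.05 and 4.78 CPM in the MMAB ASO livers. MMAB ASO replicate 1 thus lay below 2 of the 3 CON ASO livers. Its log2 fold change of 0.59 (standard error 0.30, 95% interval -0.06 to 1.25) missed the threshold (limma adjusted p = 0.33), and the exact two-sided permutation test gave 0.3. The estimate was 0.33 with MMAB ASO replicate 2 left out and 0.95 with replicate 1 of that group left out.

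The ratio of *Pdgfrb* to *Pdgfra* was 0.380, 0.461 and 0.807 in the CON ASO livers, and 1.26, 0.676 and 0.928 in the MMAB ASO livers. The ratios overlapped between the groups (exact two-sided permutation p = 0.2). It was 1 of 2 pairs of related members compared this way. Of the PDGF ligands, 2 of 4 reached the filter and neither passed. *Pdgfc*, a ligand of the alpha receptor, was at 1.42 ± 0.714 CPM in CON ASO and 2.29 ± 0.377 CPM in MMAB ASO livers (SD, n = 3 each; adjusted p = 0.265 from limma). *Pdgfa* was at 2.02 ± 0.397 and 2.17 ± 0.121 CPM (SD, n = 3 each). *Pdgfb* and *Pdgfd*, the ligands of the beta receptor, had means below 0.5 CPM in both groups and were not tested.

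Extracellular matrix protein 1, encoded by *Ecm1*, is a secreted glycoprotein that in mouse liver holds latent TGF-beta in its inactive form, and it has been found in hepatocytes as well as in stellate cells. *Ecm1* spans 95734147 to 95739569 of chromosome 3, minus strand. It was at 20.3, 19.3 and 15.1 CPM in the CON ASO livers, and 32.0, 42.8 and 35.6 CPM in the MMAB ASO livers. All 3 MMAB ASO livers lay well above the CON ASO livers. With means of 18.2 ± 2.76 CPM and 36.8 ± 5.46 CPM (SD, n = 3 each), *Ecm1* rose by 1.02 on the log2 scale (standard error 0.15, limma adjusted p = 0.00469). It too passed in all 6 fits that left out 1 liver (adjusted p from 0.00165 to 0.0286).

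*Dcn* and *Lum* encode decorin and lumican, small leucine-rich proteoglycans that bind collagen fibrils. They are neighbours on the plus strand of chromosome 10, *Dcn* from 97479609 to 97518143 and *Lum* from 97565128 to 97572703, with 46984 bases between them. *Dcn* was at 52.2, 45.3 and 37.9 CPM in the CON ASO livers, and at 60.8, 70.1 and 68.4 CPM in the MMAB ASO livers. All 3 MMAB ASO livers lay above the highest CON ASO liver, replicate 1. The means were 45.1 ± 7.16 and 66.5 ± 4.95 CPM (SD, n = 3 each), which is a rise of 0.57 on the log2 scale (standard error 0.14, limma adjusted p = 0.0433). *Dcn* kept its call with CON ASO replicate 1 left out (0.0285). It was lost when either other CON ASO liver (0.0509 and 0.138) or any MMAB ASO liver (0.0647 to 0.164) was left out.

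*Lum* was at 2.74, 1.61 and 2.02 CPM in the CON ASO livers, and at 3.47, 3.68 and 3.71 CPM in the MMAB ASO livers. The MMAB ASO livers were nearly alike, and most of the spread lay among the CON ASO livers. Its log2 fold change of 0.80 (standard error 0.22) missed the threshold (limma adjusted p = 0.066), and passed at 0.029 without CON ASO replicate 1. The ratio of *Dcn* to *Lum* was 21.97 ± 5.35 in CON ASO and 18.3 ± 0.765 in MMAB ASO livers (SD, n = 3 each), and the groups overlapped (exact two-sided permutation p = 0.3).

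Of 10 other small leucine-rich proteoglycans, 8 were in the table and 6 were tested. *Podn* (podocan), *Fmod* (fibromodulin) and *Prelp* passed, all higher, and the median log2 fold change of the 6 was 1.01. *Podn* was at 0.679, 0.587 and 0.571 CPM in the CON ASO livers and at 1.93, 1.97 and 1.61 CPM in the MMAB ASO livers (log2 fold change 1.58, adjusted p = 0.00843 from limma). *Prelp* rose from 9.94 ± 2.05 to 19.7 ± 4.39 CPM (SD, n = 3 each), with an adjusted p of 0.0151 from limma. *Fmod* was at 0.645 ± 0.122 and 1.96 ± 0.637 CPM (SD, n = 3 each), with an adjusted p of 0.0208 from limma. With 1 liver left out, *Podn* passed in all 6 fits, *Prelp* in 5 and *Fmod* in 2. *Bgn* (biglycan) was at 23.5 ± 6.58 CPM in CON ASO and 38.4 ± 7.61 CPM in MMAB ASO livers (SD, n = 3 each). Its groups overlapped, and it did not pass (adjusted p = 0.0637 from limma).

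*Reln* encodes reelin, which signals through the lipoprotein receptors encoded by *Vldlr* and *Lrp8* and the adaptor encoded by *Dab1*. *Reln* lies on chromosome 5 from 21884454 to 22344702 on the minus strand. It was at 12.9, 9.34 and 8.22 CPM in the CON ASO livers, and at 13.1, 19.9 and 19.4 CPM in the MMAB ASO livers. MMAB ASO replicate 1 was only just above CON ASO replicate 1. *Reln* rose by 0.79 on the log2 scale (standard error 0.20, limma adjusted p = 0.0492). Leaving out replicate 1 of either group kept the call (0.03 for CON ASO, 0.0163 for MMAB ASO), and leaving out replicate 2 or 4 of either group lost it (0.0569 to 0.192). The receptor and adaptor genes were all below the filter, with group means of at most 0.721 CPM.

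*Colec11* encodes collectin-11, a sugar-binding protein that starts the lectin pathway of complement. It is on the minus strand of chromosome 12, from 28594173 to 28623377. Livers had 7.45, 7.34 and 6.14 CPM in the CON ASO livers, and 8.70, 11.1 and 11.1 CPM in the MMAB ASO livers. The groups did not overlap, but MMAB ASO replicate 1 lay close to the CON ASO livers. With means of 6.98 ± 0.725 and 10.3 ± 1.37 CPM (SD, n = 3 each), *Colec11* had a log2 fold change of 0.56 (standard error 0.16) that missed the threshold (limma adjusted p = 0.0745). *Colec10*, whose product forms joint complexes with collectin-11, was at 7.68, 5.64 and 5.01 CPM in the CON ASO livers and at 11.7, 10.4 and 12.3 CPM in the MMAB ASO livers. It rose by a log2 fold change of 0.93 (adjusted p = 0.0132 from limma). It was the only 1 of 7 tested collectin, ficolin, mannose-binding lectin and protease genes to pass, and the median of the 7 was -0.11. *Masp2* (log2 fold change -0.21), *Mbl1* (-0.31) and *Fcna* (0.76) did not pass.

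*Des* encodes desmin and is on chromosome 1 from 75360329 to 75368579 on the plus strand. It was at 1.40, 1.27 and 0.766 CPM in the CON ASO livers, and at 1.57, 1.75 and 1.77 CPM in the MMAB ASO livers. The MMAB ASO livers were higher by a small margin over CON ASO replicate 1. Its log2 fold change of 0.61 (standard error 0.28) missed the threshold (limma adjusted p = 0.283) and was 0.35 without CON ASO replicate 4. *Des* rested on few reads, about 39 to 81 per library.

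Of 12 genes of the filament and contractile apparatus around desmin, 4 were tested and *Vim* passed alone. *Vim* (vimentin, an intermediate filament protein of mesenchymal cells generally, endothelium included) rose from 5.77 ± 1.02 to 12.3 ± 1.79 CPM (SD, n = 3 each; log2 fold change 1.10, adjusted p = 0.00578 from limma). *Plec* (log2 fold change -0.52), *Tpm1* (0.28) and *Actn1* (0.15) did not pass.

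*Hand2* encodes a basic helix-loop-helix transcription factor of mesenchymal cells. It lies on chromosome 8 from 57320983 to 57324633 on the plus strand. Its level was 4.43, 1.92 and 3.20 CPM in the CON ASO livers, and 4.18, 5.20 and 4.47 CPM in the MMAB ASO livers. CON ASO replicate 1 lay inside the range of the MMAB ASO livers. Its log2 fold change of 0.61 (standard error 0.26) missed the threshold (limma adjusted p = 0.251), and the estimate was 0.29 with CON ASO replicate 2 left out and 0.89 with replicate 1 of that group left out. Of the exon bases of *Hand2*, 19.6% are shared with the antisense gene *Hand2os1*. The sources used here do not say whether strand was used in the counting, and without it reads of both cannot be told apart there.

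Of 14 other mesenchymal transcription factor genes, 8 were tested and *Tcf21*, a stellate cell factor of the same protein class, passed alone. *Tcf21* was at 1.10, 0.705 and 1.05 CPM in the CON ASO livers and at 2.03, 3.11 and 2.08 CPM in the MMAB ASO livers (log2 fold change 1.34, adjusted p = 0.0217 from limma). The LIM homeobox gene *Lhx2* (log2 fold change 0.67), *Zeb2* (0.57) and *Tbx20* (0.55) did not pass.

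*Rgs5* encodes a regulator of G-protein signalling found in pericytes, the wall cells of small vessels, to which stellate cells are related. It is on chromosome 1 from 169655501 to 169695813 on the plus strand. It was at 11.5, 11.4 and 9.21 CPM in the CON ASO livers, and at 18.2, 13.9 and 19.4 CPM in the MMAB ASO livers. *Rgs5* was the only member lowest in MMAB ASO replicate 2 among the MMAB ASO livers. *Rgs5* rose by 0.68 on the log2 scale (standard error 0.16, limma adjusted p = 0.0386). Leaving out replicate 2 of either group kept the call (0.031 for CON ASO, 0.0168 for MMAB ASO), and leaving out replicate 1 or 4 of either group lost it (0.0567 to 0.179). Of 9 relatives in the R4 family of these regulators, 2 were tested. *Rgs16* rose from 2.34 ± 1.30 to 7.64 ± 3.58 CPM (SD, n = 3 each; log2 fold change 1.71, adjusted p = 0.0331 from limma), and *Rgs3* (log2 fold change -0.62) did not pass.

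**Figure D2:**
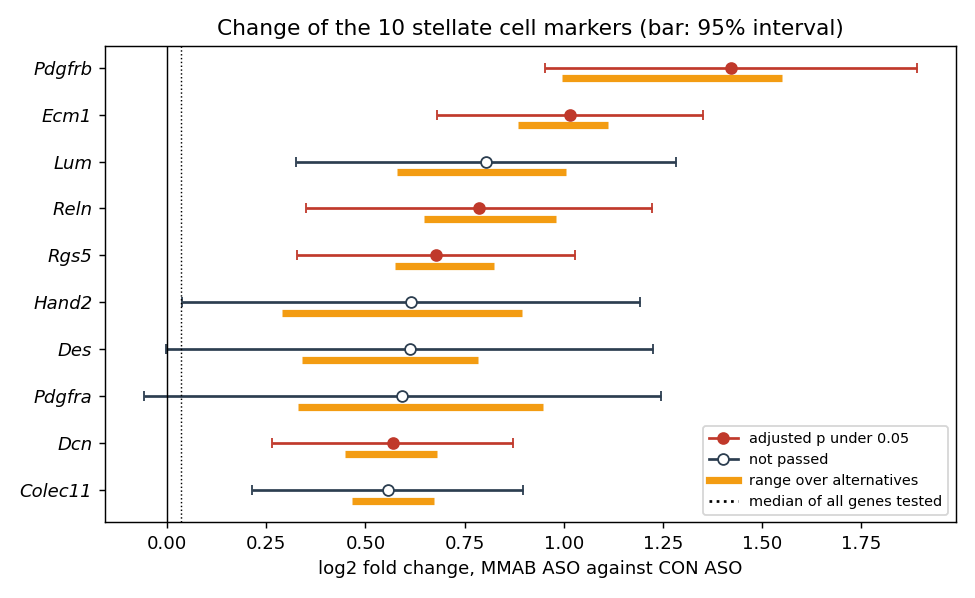
log2 fold change of each marker in MMAB ASO against CON ASO livers (points) with its 95% interval from limma. Filled points passed an adjusted p of 0.05, thick bars give the range over the alternatives, and the dotted line is the median of all genes tested, 0.03. The interval of *Pdgfrb*, 0.95 to 1.89, begins above the point estimate of every marker except *Ecm1*, and all thick bars lie above 0.

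The promoters of *Ecm1*, *Rgs5* and *Reln* are printed because these are the members that passed an adjusted p of 0.05 and for which a sequence was at hand. They run from 250 bases before the start site to 50 after it (RefSeq, GRCm38.p6), 5′ to 3′ on the strand of the gene. Capitals mark CANNTG, the E-box bound by basic helix-loop-helix factors such as those encoded by *Hand2* and *Tcf21*. The regions are chr3:95739520-95739819 on the minus strand, chr1:169655251-169655550 on the plus strand and chr5:22344656-22344955 on the minus strand.
Ecm1: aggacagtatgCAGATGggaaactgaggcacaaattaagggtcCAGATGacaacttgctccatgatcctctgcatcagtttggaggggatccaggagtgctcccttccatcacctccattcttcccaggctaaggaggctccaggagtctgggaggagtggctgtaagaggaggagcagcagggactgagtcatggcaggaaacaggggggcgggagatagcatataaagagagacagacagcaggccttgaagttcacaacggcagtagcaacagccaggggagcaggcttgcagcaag
Rgs5: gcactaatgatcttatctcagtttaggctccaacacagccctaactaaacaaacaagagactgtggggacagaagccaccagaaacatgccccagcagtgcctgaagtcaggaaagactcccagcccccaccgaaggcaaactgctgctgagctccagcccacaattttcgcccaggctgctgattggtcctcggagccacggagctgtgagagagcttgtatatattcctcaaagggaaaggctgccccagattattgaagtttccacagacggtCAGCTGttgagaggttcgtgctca
Reln: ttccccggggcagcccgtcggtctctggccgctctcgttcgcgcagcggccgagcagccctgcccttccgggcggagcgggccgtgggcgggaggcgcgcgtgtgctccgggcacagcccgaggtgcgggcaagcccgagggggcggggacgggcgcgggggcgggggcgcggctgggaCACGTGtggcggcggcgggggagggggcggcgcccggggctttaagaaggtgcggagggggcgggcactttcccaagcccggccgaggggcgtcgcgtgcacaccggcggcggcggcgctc

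Promoters of 7 of the 10 members were in the reference table, and all 7 held CANNTG, as did 72.3% of the 32851 promoters searched on both strands. GGGCGG, the GC box, was found in 4 of the 7 (*Des*, *Reln*, *Ecm1* and *Hand2*) and in 35.7% of all promoters. TAATTA, a homeobox core, was found in that of *Hand2* and in 5.29% of all, and GGAATG, the TEAD motif, in 0 of the 7 and in 14.7% of all. The 3 printed promoters held 80.7% (*Reln*), 54.7% (*Ecm1*) and 52.3% (*Rgs5*) G and C, beside a median of 52.7% over all promoters. Matches of different motifs may share bases, and a match is no evidence that a factor binds.

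Per kilobase of exon, which allows levels of different genes to be compared, *Dcn* and *Ecm1* led in CON ASO livers at 7.73 ± 1.23 and 7.23 ± 1.10 CPM per kb (SD, n = 3 each). Their ranges overlapped, although *Dcn* was the higher of the pair within each CON ASO liver. *Colec11* (4.30 ± 0.447), *Rgs5* (2.35 ± 0.280), *Hand2* (1.35 ± 0.535) and *Lum* (0.868 ± 0.234) followed. The ranges of *Hand2* and *Lum* overlapped too, with *Hand2* higher within each CON ASO liver. Differences between genes within a liver were not tested. The lowest levels per kb were those of *Reln* (0.428 ± 0.103), *Des* (0.305 ± 0.0894), *Pdgfra* (0.285 ± 0.0778) and *Pdgfrb* (0.268 ± 0.0415), which overlapped with their neighbours. In MMAB ASO livers *Ecm1* stood at 14.6 ± 2.17 and *Dcn* at 11.4 ± 0.848 CPM per kb, and *Pdgfrb* (0.717 ± 0.111) was level with *Reln* (0.736 ± 0.160).

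The livers differed in a shared way within each group. CON ASO replicate 1 had the highest CON ASO value for 9 of the 10 markers, all but *Pdgfrb*, and CON ASO replicate 4 the lowest for 7. Among MMAB ASO livers, replicate 1 was lowest for 9 of the 10, all but *Rgs5*. Protein-coding genes made up 56.99% of the library total for CON ASO replicate 1, 49.33% for replicate 2 and 48.81% for replicate 4. For MMAB ASO replicates 1, 2 and 4 these shares were 48.38%, 51.09% and 46.15%. Whether the protein-coding share bears on the order of the livers was not tested. The column names of MMAB ASO replicates 2 and 4 carry suffix numbers far from those of the other livers. No CON ASO liver carries such a suffix. What the suffixes stand for is not stated, and their part in the order of the livers was not tested. In these livers, any effect tied to the suffix cannot be told apart from the difference between the groups. Set against the CON ASO mean of each gene, the median marker was at 0.28, 0.0036 and -0.22 on the log2 scale in the CON ASO livers, and at 0.49, 0.81 and 0.81 in the MMAB ASO livers. At the study's thresholds 6 of the 10 markers were higher with all livers, and between 4 and 10 with 1 liver left out. The 10 came without CON ASO replicate 1, the liver with low ribosomal RNA, where 6.98% of all tested genes were higher, and the 4 without replicate 4 of either group, where 4.57% (CON ASO) and 4.94% (MMAB ASO) were. With CON ASO replicate 2, MMAB ASO replicate 1 or MMAB ASO replicate 2 left out the number was 7, 9 and 5, beside 5.47%, 5.39% and 5.15% of all tested genes.

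*Pdgfrb* departed from this shared order. In CON ASO livers it was highest in replicate 4, in which 7 of the other 9 markers were lowest. Measured against the mean of the other 9 markers on the log2 scale, its change was 0.73, and the next largest was that of *Ecm1* at 0.28. The remaining 8 lay between -0.23 and 0.04. Relative to those 9 markers and to its own CON ASO mean, *Pdgfrb* was at -0.35, -0.11 and 0.47 in the CON ASO livers and at 0.68, 0.68 and 0.84 in the MMAB ASO livers, without overlap.

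Over the 6 livers, Pearson's r between the log2 levels of 2 markers was 0.45 to 0.97 in the 45 pairs, with a median of 0.82. The points share the libraries and their scaling, and the difference between the groups is part of r. Taken as deviations from the group means, the median of the 45 was 0.38, with 38 above 0. *Lum* and *Hand2* were the closest pair on that measure (0.96), and *Des* and *Pdgfrb* the farthest apart (-0.46).

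The genes most like the mean of the 10 markers, by Pearson's r of log2 levels over the 6 livers and among all other tested genes, were *Ntn1*, *Gm4956*, *Kitl*, *Rpl27-ps3*, *Tgfbr3*, *Aldh5a1*, *Fuk* and *Itga8*. Their r was 0.99 to 0.999 by the rule that chose them. *Ntn1* encodes the guidance protein netrin-1, *Kitl* the stem cell factor and *Tgfbr3* the co-receptor betaglycan. *Ntn1* was at 2.75 ± 0.404 and 4.61 ± 0.529 CPM (SD, n = 3 each), *Tgfbr3* at 4.44 ± 0.716 and 7.59 ± 0.595 CPM, and *Aldh5a1* at 49.3 ± 2.32 and 55.8 ± 2.01 CPM. A like order of the livers thus came with changes of different size.

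Other genes known from stellate cells were compared as a list of 23. Of these, 20 were tested and 10 of these were higher at an adjusted p under 0.05 from limma, where 1.87% of all tested genes were. The median log2 fold change over the 20 was 0.77. *Vipr1*, the receptor for vasoactive intestinal peptide, was at 14.6, 11.2 and 10.9 CPM in the CON ASO livers and at 22.7, 22.5 and 25.8 CPM in the MMAB ASO livers (log2 fold change 0.96, adjusted p = 0.00483). *Ednrb*, an endothelin receptor that endothelial cells also carry, rose from 1.88 ± 0.774 to 4.93 ± 0.705 CPM (SD, n = 3 each; adjusted p = 0.0112 from limma). *Gdf2*, the gene of BMP9, a ligand that acts on the neighbouring endothelium, rose by 0.82, and *Lrat*, whose enzyme makes the stored retinyl esters, by 0.76. *Hgf*, *Tcf21*, *Itga8*, *Adamtsl2*, *Sod3* and *Vim* also passed, at 0.62 to 1.34. With 1 liver left out, *Vim* and *Vipr1* passed in all 6 fits and *Ednrb* in 5. *Gdf2*, *Hgf*, *Tcf21* and *Itga8* did in 3, *Lrat* and *Adamtsl2* in 2 and *Sod3* in 0.

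*Lhx2*, *Cygb*, *Pth1r*, *Bambi*, *Steap4* and *Agtr1a* did not pass, nor did *Angptl6*, *Rspo3*, *Bmp10* and *Ednra*. *Ngfr*, *Gfap* and *Nes* were below the filter, with *Gfap* at 0.127 ± 0.0248 CPM in CON ASO and 0.173 ± 0.0757 CPM in MMAB ASO livers (SD, n = 3 each).

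**Figure D3:**
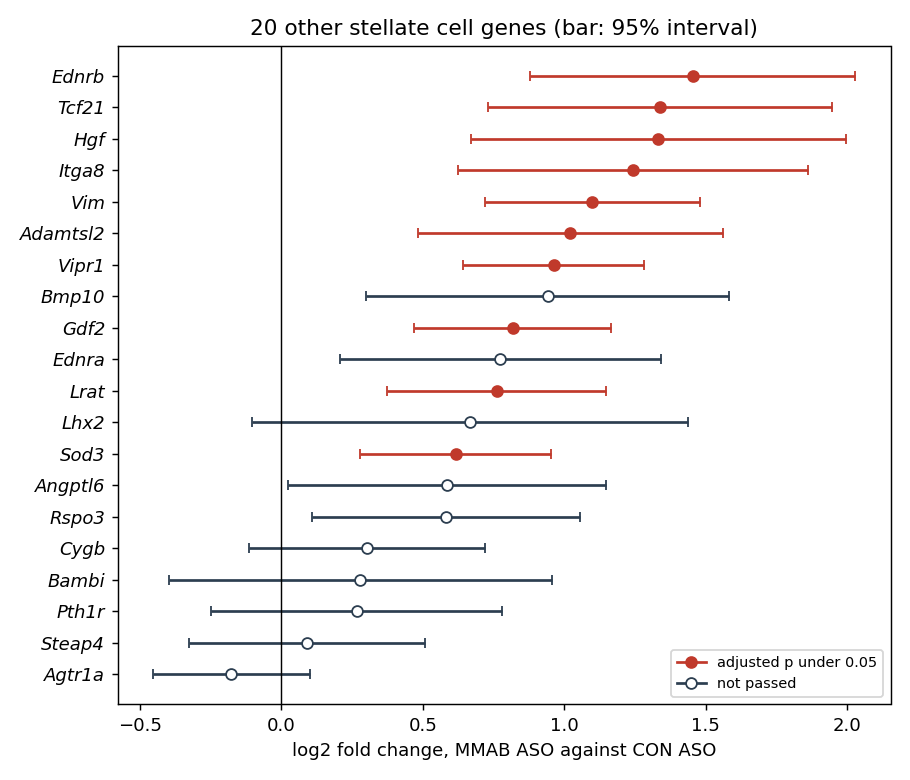
log2 fold change of the 20 tested genes among 23 other stellate cell genes, MMAB ASO against CON ASO livers, with 95% intervals from limma. Filled points passed an adjusted p of 0.05, and all 10 of them lie to the right of 0.

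Among genes listed because stellate cells raise them as they become myofibroblasts, most of those tested had positive log2 fold changes, but few passed. *Acta2*, the smooth muscle actin that defines that state, was below the filter, at 0.110, 0.488 and 0.294 CPM in the CON ASO livers and at 0.812, 0.390 and 0.380 CPM in the MMAB ASO livers. Its groups overlapped. Of 28 listed activation and matrix genes without collagens, 17 were tested, 4 were higher and 2 lower, where 1.87% and 2.22% of all tested genes were. The median log2 fold change of the 17 was 0.72, and 13 of them were positive, as were 55.6% of all tested genes. At the study's thresholds 10 of the 17 were higher and 1 was lower, where 5.52% of all tested genes were higher. The higher genes were *Sparcl1*, *Ctgf*, *Timp3* and *Timp2*, of which the last encode inhibitors of matrix proteases. *Timp3* was at 13.1, 13.3 and 7.44 CPM in the CON ASO livers and at 20.53, 20.8 and 20.4 CPM in the MMAB ASO livers (log2 fold change 0.92, adjusted p = 0.0272 from limma). *Ctgf* was at 3.02 ± 1.147 and 8.04 ± 3.37 CPM (SD, n = 3 each; log2 fold change 1.40, adjusted p = 0.0253 from limma). With 1 liver left out, *Timp3* passed in 4 of 6 fits, *Ctgf* and *Timp2* in 3 and *Sparcl1* in 2.

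The genes lower in this list were *Mmp14*, a membrane protease that cuts matrix, and *Fn1*, the gene of fibronectin, which hepatocytes secrete in bulk. *Mmp14* fell from 27.7 ± 0.601 to 18.9 ± 2.02 CPM (SD, n = 3 each; log2 fold change -0.56, adjusted p = 0.0328 from limma). *Fn1* fell from 361 ± 73.4 to 229 ± 13.2 CPM (SD, n = 3 each; log2 fold change -0.64, adjusted p = 0.0422 from limma). With 1 liver left out, *Mmp14* passed in 2 of 6 fits and *Fn1* in 1.

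Most tested markers of other non-parenchymal liver cells moved with the 10 markers, and their part in the result was not tested. At an adjusted p under 0.05, 1.87% of all tested genes were higher and 2.22% lower. All 18 sinusoidal endothelial markers were tested, and at that threshold 11 were higher and none was lower. Their median log2 fold change was 0.97, and their summed level was 64.6 to 95.1 CPM in CON ASO and 137 to 160 CPM in MMAB ASO livers. *Ehd3*, *Clec4g*, *Stab1* and *Fcgr2b* had the smallest p, with log2 fold changes of 1.26, 1.25, 0.97 and 1.24. The summed level of the 10 stellate cell markers was 86.4 to 118 CPM in CON ASO and 148 to 179 CPM in MMAB ASO livers.

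Of 14 Kupffer cell and macrophage markers, 12 were tested, and *Clec4f*, *Clec1b* and *Vsig4* passed, all higher. Their sum was 31.2 to 109 CPM in CON ASO and 68.3 to 119 CPM in MMAB ASO livers, and in the mean log2 level of the list CON ASO replicate 1 was the highest of the 6 livers, where for the stellate cell markers it lay below all 3 MMAB ASO livers. *C1qa*, next in p, did not pass. With 1 liver left out, *Clec4f* passed in 3 of 6 fits, and *Clec1b* and *Vsig4* in 2. Of the 12 tested, 11 had a positive log2 fold change, where 55.6% of all tested genes did. *Marco* went the other way without passing (-2.96, adjusted p = 0.1075 from limma). It was at 15.7, 0.813 and 0.805 CPM in the CON ASO livers and at 0.426, 0.134 and 0.380 CPM in the MMAB ASO livers. None of the 12 tested hepatocyte markers passed, those with the smallest p being *Ass1*, *Hpd*, *Fgb* and *Apoa1*, with a median log2 fold change of -0.20 and sums of 65830 to 77020 CPM in CON ASO and 59020 to 71990 CPM in MMAB ASO livers. Of 5 tested red blood cell genes, *Hba-a2* and *Hbb-bt* were higher, *Hba-a1* and *Hbb-bs* did not pass, and neither did *Alas2*, the erythroid enzyme of heme synthesis, whose groups lay apart in the other direction (28.4 ± 2.81 CPM in CON ASO and 20.8 ± 1.67 CPM in MMAB ASO livers, SD, n = 3 each; adjusted p = 0.0802 from limma). The sum of all 6 listed was 234 to 298 CPM in CON ASO and 322 to 467 CPM in MMAB ASO livers.

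The other mesenchymal cells that share these markers left fewer measurable genes. Of 11 pericyte and smooth muscle markers 3 were tested and none passed. *Abcc9* was at 7.79 ± 1.31 and 12.7 ± 2.99 CPM (SD, n = 3 each; adjusted p = 0.0747 from limma), and *Tagln* and *Pln* had log2 fold changes of 0.22 and 0.77. The sum of the 11 was 12.4 to 14.2 CPM in CON ASO and 19.03 to 21.5 CPM in MMAB ASO livers. *Cspg4*, a defining pericyte marker, was at 0 in CON ASO replicate 4 and MMAB ASO replicates 2 and 4, and at most 0.0542 CPM elsewhere.

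Of 13 portal fibroblast and mesothelial markers 4 were tested, and the matrix gene *Dpt* (dermatopontin) rose from 1.89 ± 0.424 to 4.30 ± 1.02 CPM (SD, n = 3 each; adjusted p = 0.0164 from limma). *Upk3b* (log2 fold change 0.87), *Msln* (0.47) and *Gas6* (-0.07) did not pass, and the sum of the 13 was 19.7 to 21.97 CPM in CON ASO and 24.0 to 27.0 CPM in MMAB ASO livers. Of 7 bile duct markers 2 were tested and *Spp1* passed, higher by 0.98, while *Sox9* (-0.04) did not. *Spp1* is also made by macrophages and stellate cells. The sum of the 7 was 16.6 to 23.9 CPM in CON ASO and 25.4 to 34.3 CPM in MMAB ASO livers. Lymphocyte markers summed to at most 3.26 CPM in any liver, and *Ptprc*, the only 1 of 8 tested, did not pass.

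**Figure D4:**
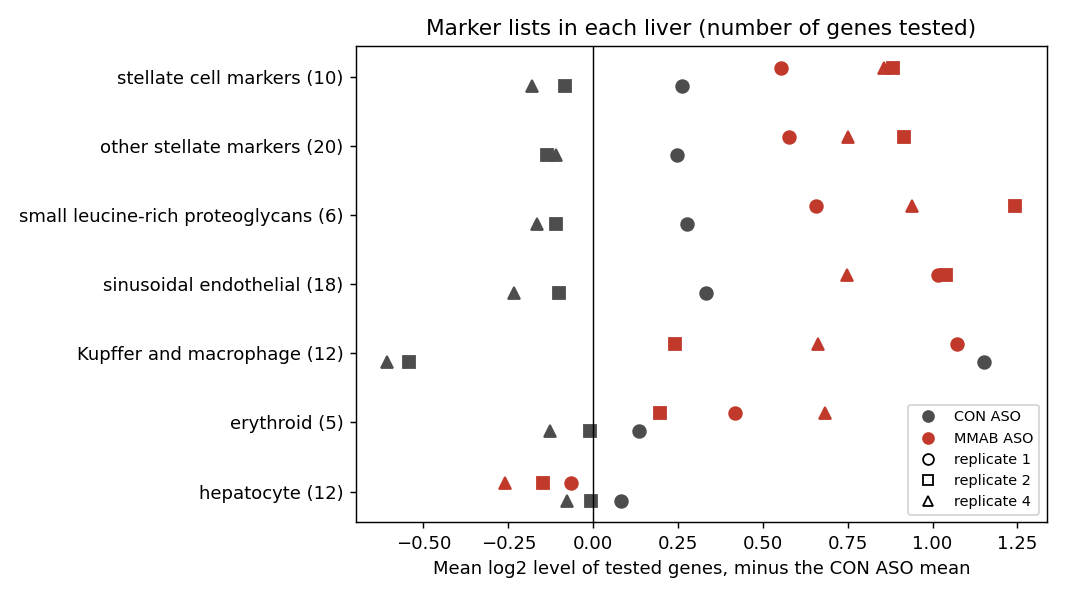
Mean log2 level of the tested genes of 7 marker lists in each liver, with the CON ASO mean of each gene set to 0. Each point is a liver, colour gives the group, shape the replicate number, and numbers in brackets are genes tested. The 10 stellate cell markers are at -0.18 to 0.26 in CON ASO and 0.55 to 0.88 in MMAB ASO livers, and the endothelial markers at -0.23 to 0.33 and 0.75 to 1.04.

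Each of the 10 markers had a positive log2 fold change in all alternatives in which it was tested, whereas the number that passed depended on the setting. *Pdgfrb* and *Ecm1* passed in all of them, 15 and 16, with adjusted p of at most 0.0306. With libraries rescaled to an equal protein-coding total, *Lum* and *Colec11* passed as well, 7 of 10 in all, and 65.7% of the genes called were higher, against 45.7% on the deposited scale. Under median-ratio scaling 3 of 10 passed and 28.0% of the genes called were higher. Of all 11565 tested genes, 416 were higher under the protein-coding scaling, 216 on the deposited scale and 146 under median-ratio scaling.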

How the data were processed

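Liver RNA of 3 CON ASO and 3 MMAB ASO mice was depleted of ribosomal RNA and sequenced. The authors aligned reads with STAR in Partek to the mouse genome and estimated abundance with the Partek E/M model. The deposited values are log2 of counts scaled by the authors to the library total (CPM), with 0.0001 added. All 6 columns were matched to samples by name. Positions matched the starts in GENCODE M21 (GRCm38), and exon lengths are unions over its transcripts. Of the values up to 20 reads, 58.3% to 59.8% per library were whole multiples of the smallest step, to within 0.01, which left whole reads unrecovered and a count test out of reach.

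Genes averaging 1 CPM or more (11565) entered limma 3.58.1 (R 4.3.3) as deposited log2 values, with an intensity trend in the prior variance and no covariates, and adjusted by the Benjamini-Hochberg method over all genes. Fold changes refer to log2(value + 0.0001). The limma fit stands in for the authors' GSA test at the study's thresholds. P-values rest on the spread between the 3 samples of each group, drawn toward the trend over all tested genes. They take in no other source of variation. In 10 simulations of this comparison over 11565 genes, each with 200 changed genes, a log2 rise of 1 was recovered for 65.4% of genes and a log2 rise of 0.5 for 9.2%, while 4.3% of calls fell on unchanged genes. The simulated noise was independent between genes. Differences that genes of the same liver share were thus left out, and the share of false calls in the real data is not known from it.

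The 10 members, 9 pathway lists and 8 cell type lists were chosen with earlier results of these data known. Some listed genes are not reported here, and counts, medians and sums over 3 lists (other stellate cell genes, activation and matrix, bile duct) leave them out, in either direction of change, and so do not describe those lists as first drawn up. Genes named are all members, up to 4 genes of each list with the smallest p, and the 8 genes most like the members' mean. Further genes of the stellate, activation and marker lists were named after their values were seen. Alternatives were 3 scalings, 2 pseudocounts, 2 filters, no trend, the replicate block, leaving out each liver, and protein-coding sum scaling, chosen after the data were seen. Python 3.11.15 with pandas 2.3.3 wrote the tables, and matplotlib 3.10.9 drew the plots.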

Additional observations from a re-analysis of the deposited data

How the results depend on the processing

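The median log2 fold change of the 10 markers was 0.57 to 0.84 over all 16 alternatives, and none of the markers was lower at an adjusted p under 0.05 in any of them. The number higher, 5 as reported, was 3 under median-ratio scaling, quantile normalization and a stricter filter (mean of 5 CPM), which left 5 markers tested, and 2 without a filter, with no trend in the variance prior and with the replicate block. Leaving out each liver in turn gave 2 to 5, with 2 without replicate 4 of either group. At the study's thresholds the number, 6 as reported, was 3 under the stricter filter and 4 to 10 when leaving out each liver.

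Over all genes, 216 were higher and 257 lower. Higher genes numbered 106 without a filter, 92 under the stricter filter, 416 under protein-coding sum scaling and 46 to 242 when leaving out each liver. They numbered 146 under median-ratio scaling, 166 under quantile normalization and 183 with no trend. Lower genes numbered 149 without a filter, 149 with no trend and 108 to 312 when leaving out each liver. The median of all genes was 0.12 under protein-coding sum scaling and -0.03 under median-ratio scaling. Genes near 0 changed sign: *Gas6* to 0.016 and *Sox9* to 0.047 under protein-coding sum scaling, *Sox9* to 0.00698 under table-sum scaling and *Pdgfa* to -0.00174 under quantile normalization. When leaving out each liver, *Gas6* ranged from -0.183 to 0.00268, *Sox9* from -0.39 to 0.184, *Pdgfa* from -0.0398 to 0.248 and *Tagln* from -0.0787 to 0.409. The causes were not tested.

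The replicate numbers did not pair the livers: the deviations from the group means of same-numbered livers correlated at -0.02, 0.05 and -0.005, and only replicate 2 correlated best with its own number. With the replicate block, 180 genes were higher and 250 lower. Levels below about 1 CPM, such as those of *Acta2* and *Gfap*, rest on few reads and were not tested.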

Other observations

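Of 64 listed genes below the filter at a mean of 1 CPM, 15 had all MMAB ASO livers above all CON ASO livers and 1, *Nes*, had them below. Over all 9732 genes below the filter these shares were 13.4% and 4.69%. The genes named here were chosen after their values were seen and were not tested. *Tgfb3*, a TGF-beta ligand, was at 0.241, 0.614 and 0.530 CPM in CON ASO and at 1.12, 1.62 and 0.939 CPM in MMAB ASO livers. *Nes*, the gene of the intermediate filament protein nestin, was at 0.297 to 0.375 CPM in CON ASO and 0.214 to 0.259 CPM in MMAB ASO livers, lower where *Vim* and the mean of *Des* were higher.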
